A study of Mus musculus with 24 samples.

Results

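The 10 genes described here encode transcription factors that direct the branches of the dendritic cell lineage: Irf8, Irf4, Batf3, Id2, Id3, Zbtb46, Spib, Tcf4, Klf4 and Zeb2. They were picked by symbol for their role, with earlier results of these data known, and all 10 were found among the 55414 gene lines of the count files and passed the filter on low counts in every model. Dendritic cells take up antigen and present it to T cells. The study sequenced messenger RNA of dendritic cells grown from mouse bone marrow, in 8 groups of 3 libraries, and asked how these cells respond to AZD5582, which blocks the IAP family of cell death inhibitors.

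GM cultures were grown in 20 ng/ml of the growth factor GM-CSF, and FL cultures in the same GM-CSF with 200 ng/ml of FLT3L. The start (t0) was day 8 for GM and day 16 for FL cultures, per the extraction protocol. The growth protocol gives a later day for GM cultures unless stated otherwise. Cells were harvested at the start or after 24 h. During those 24 h they received DMSO, the solvent, or AZD5582 at 0.1, 0.5 or 1 µM in GM cultures and at 0.05 µM in FL cultures. The donor mice were Cas9-EGFP or WT animals on C57BL/6JRj, and no label says which of them gave a given library. GM replicates share a culture number (105), and whether they came from separate animals is not stated. FL replicates are cultures 91, 94 and 95. P-values therefore measure the spread between these libraries, which in GM cultures may be technical. FLT3L, culture day and culture number differ together between FL and GM cultures, so their parts cannot be told apart.

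As background, conventional dendritic cells fall into a cross-presenting branch (cDC1) and a branch that mainly primes helper T cells (cDC2), beside interferon-producing plasmacytoid dendritic cells and monocyte-derived cells. IRF8 works with BATF3 to set and keep the cDC1 programme, and ID2 protects it by binding E proteins, which otherwise favour the plasmacytoid fate. IRF4, KLF4 and ZEB2 act in cDC2 cells, KLF4 and ZEB2 also in monocytes, and ZEB2 opposes the cDC1 branch. TCF4, itself an E protein, and SPIB, an Ets factor, maintain plasmacytoid cells. ZBTB46 marks conventional dendritic cells of both branches, and ID3 is a second inhibitor of E proteins.

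The bases before the transcription start are shown for the 3 genes of the list with the largest fitted rise over 24 h in GM cultures. Sequences are from RefSeq on GRCm38.p6, cover 250 bases before the start, and are written 5′ to 3′ along the gene's strand. Capitals mark matches, on either strand, to the kappa-B consensus, which NF-κB binds, or to the E box CANNTG, which E proteins bind. No 2 marked matches overlap.
Id3 (chr4:136143572-136143821, plus strand): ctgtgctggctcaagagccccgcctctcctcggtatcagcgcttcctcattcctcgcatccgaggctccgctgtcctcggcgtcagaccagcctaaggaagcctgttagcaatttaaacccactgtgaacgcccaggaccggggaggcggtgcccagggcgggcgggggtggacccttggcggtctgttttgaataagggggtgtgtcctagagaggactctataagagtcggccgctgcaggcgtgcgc
Spib (chr7:44532072-44532321, minus strand): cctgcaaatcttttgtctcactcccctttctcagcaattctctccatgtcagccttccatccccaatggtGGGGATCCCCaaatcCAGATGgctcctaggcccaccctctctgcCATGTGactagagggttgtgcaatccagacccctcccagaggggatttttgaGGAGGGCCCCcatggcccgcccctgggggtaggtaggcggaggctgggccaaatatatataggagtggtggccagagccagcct
Irf8 (chr8:120736108-120736357, plus strand, the first of 2 start sites): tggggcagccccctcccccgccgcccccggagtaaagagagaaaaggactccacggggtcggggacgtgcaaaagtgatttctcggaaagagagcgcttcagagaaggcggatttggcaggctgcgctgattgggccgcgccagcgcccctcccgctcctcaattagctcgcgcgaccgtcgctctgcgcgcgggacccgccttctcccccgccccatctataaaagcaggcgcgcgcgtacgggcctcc

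The Spib window held 2 kappa-B matches, whose first bases lay 180 and 84 bases before the start, and 2 E boxes at 165 and 136 bases. Of the members with a window in the table, 9 of 10, Spib was the only one with a kappa-B match. That motif was found in 7.25% of 32851 windows of the same length, and the E box in 66.2%. An AP-1 site (TGANTCA), which BATF3 and JUN proteins bind, was found in the Zbtb46 window, in 1 of the 4 Zeb2 windows and in 6.75% of all windows. Neither the core of the interferon-stimulated response element nor the composite site for Ets factors with IRF4 or IRF8 was found in a window of a member. They occurred in 2.98% and 2.30% of all windows. A match describes the letters in this window and is not evidence of binding.

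Libraries held 27 to 85.8 M (mega) counts in genes, with a median of 51.7 M. Levels are given as CPM, counts per mega-count of the library after TMM scaling over all 24 libraries, and a log2 change is followed by its standard error (SE). A gene is said to rise, fall or differ where its adjusted p was under 0.05 in edgeR's quasi-likelihood test, adjusted by Benjamini-Hochberg over all genes tested in the model, and every adjusted p below is of that kind. Culture 91 stood apart from the other FL cultures: on the first principal component, with 67.3% of the variance of FL libraries, its DMSO library lay at 60.9, against -28.8 and -16.8 for cultures 94 and 95. Several results are given with and without its libraries. Replicate 1 at 1 µM in GM cultures also differed from replicates 2 and 3 of its group: mitochondrial genes took 8.04% of its counts against 3.96% and 4.27%, and lines that name no gene 16.4% against 12.9% and 13.1%. In these bulk samples, fewer cells of a type and less RNA per cell cannot be told apart.

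**Figure D1:**
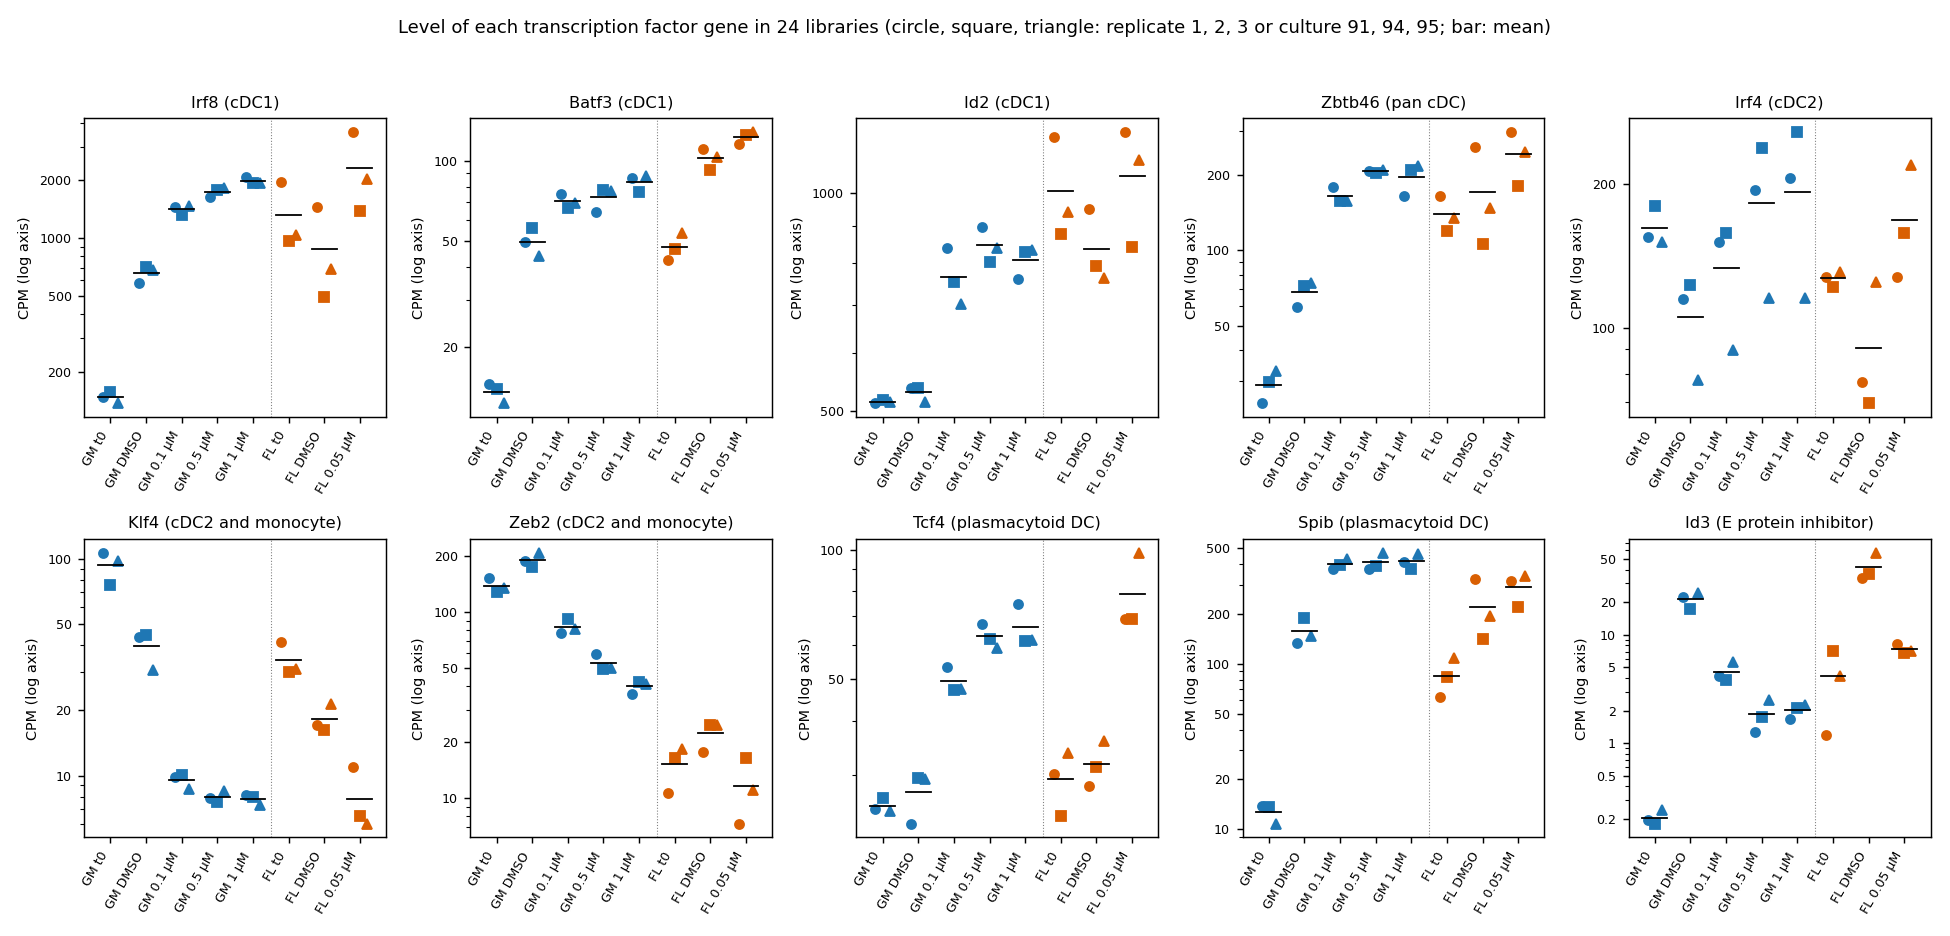
Level of each of the 10 genes in CPM on a log axis, 1 panel per gene, with 8 groups on the horizontal axis; symbols are libraries (replicates 1, 2 and 3 of GM cultures in blue, cultures 91, 94 and 95 of FL cultures in orange) and bars are group means. Id3 spans the widest range, from 0.207 CPM on average in GM cultures at t0 to 42.4 CPM in FL cultures in DMSO, and Klf4 and Zeb2 run downward in AZD5582 where most of the other genes run upward.

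Among the cDC1 factors, Irf8 spanned the widest range of group means, 15.8-fold. In GM cultures it stood at 147, 157 and 137 CPM at t0 and at 578, 709 and 679 CPM after 24 h in DMSO. With AZD5582 it reached 1446, 1324 and 1464 CPM at 0.1 µM, 1644, 1770.5 and 1812 CPM at 0.5 µM and 2074, 1933 and 1944 CPM at 1 µM. Each of these groups lay above the one before it with no overlap. In FL cultures 91, 94 and 95, Irf8 stood at 1962, 966 and 1041 CPM at t0, at 1453, 492 and 690.1 CPM in DMSO and at 3573, 1375 and 2021 CPM in AZD5582. Culture 91 was the highest of the 3 in every FL group, and the FL groups overlapped. All 3 cultures were lower in DMSO than at t0 and higher in AZD5582 than in DMSO.

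Batf3 was 9.06 times higher in its highest group, FL cultures in AZD5582, than in its lowest, GM cultures at t0. GM libraries held 14.5, 13.9 and 12.4 CPM at t0 and 49.5, 56.0 and 43.8 CPM in DMSO. They held 75.1, 66.6 and 69.6 CPM at 0.1 µM, 64.5, 77.9 and 77.2 CPM at 0.5 µM and 86.4, 76.6 and 87.8 CPM at 1 µM. The 3 doses overlapped with their neighbours and all lay above DMSO. FL libraries held 42.6, 46.6 and 53.8 CPM at t0, 111, 92.2 and 104 CPM in DMSO, and 116, 125 and 128 CPM in AZD5582, 3 groups without overlap.

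Id2 varied least of the 10, with a highest group mean 2.05 times the lowest. GM libraries were within 512 to 538 CPM at t0 and in DMSO, and within 703 to 896 CPM at the 3 doses. FL libraries ranged from 878 to 1193 CPM at t0, from 764 to 950.5 CPM in DMSO and from 840.4 to 1213 CPM in AZD5582. Culture 91 was again the highest in each FL group. In order of mean level, 6 of the 7 neighbouring group pairs of Id2 overlapped, so that the order separates little beyond the GM cultures without AZD5582, which were lowest.

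Zbtb46, the factor of both conventional branches, stood at 24.5, 29.9 and 32.9 CPM in GM cultures at t0 and at 59.4, 72.0 and 73.9 CPM in DMSO. It stood at 179, 157 and 157 CPM at 0.1 µM, at 209, 205 and 210.0 CPM at 0.5 µM and at 165, 209 and 218 CPM at 1 µM. All AZD5582 libraries exceeded all GM libraries without it. In FL cultures 91, 94 and 95 it stood at 165, 119.9 and 135 CPM at t0, at 260.2, 107 and 147 CPM in DMSO and at 298, 181 and 249 CPM in AZD5582. The DMSO libraries overlapped with both other FL groups.

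Irf4, the cDC2 factor, had the widest overlap: all 7 neighbouring pairs in the order of its group means overlapped. GM libraries held 155, 179.9 and 151 CPM at t0 and 115, 123 and 77.5 CPM in DMSO. They held 151, 158 and 90.0 CPM at 0.1 µM, 194, 238 and 115 CPM at 0.5 µM and 206, 257 and 116 CPM at 1 µM. Replicate 3 was the lowest library in each GM group, and within each replicate number the level was higher at every dose than in DMSO. FL libraries held 128, 122 and 131 CPM at t0, 76.8, 69.5 and 125 CPM in DMSO and 128, 158 and 219 CPM in AZD5582.

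Klf4 and Zeb2, which act in cDC2 cells and monocytes, were the 2 genes of the list at their lowest under AZD5582 in both culture types. Klf4 stood at 107, 75.6 and 97.2 CPM in GM cultures at t0 and at 43.8, 44.7 and 30.8 CPM in DMSO, and between 7.33 and 10.1 CPM in the 9 libraries with AZD5582. In FL cultures 91, 94 and 95 it stood at 41.4, 29.9 and 30.8 CPM at t0, 17.2, 16.3 and 21.3 CPM in DMSO and 11, 6.47 and 5.99 CPM in AZD5582. Its groups did not overlap within a culture type except among the doses. Zeb2 stood at 153, 128 and 135 CPM in GM cultures at t0, at 189, 174 and 209 CPM in DMSO, at 77.4, 92.3 and 81.2 CPM at 0.1 µM, at 59.7, 49.3 and 50.0 CPM at 0.5 µM and at 36.2, 42.4 and 41.3 CPM at 1 µM. These 5 groups did not overlap, and the AZD5582 groups stepped down with dose. FL libraries held far less Zeb2: 10.7, 16.5 and 18.5 CPM at t0, 17.7, 24.7 and 24.9 CPM in DMSO and 7.32, 16.5 and 11.2 CPM in AZD5582. The antisense gene Zeb2os overlaps 3.27% of the exon length of Zeb2, and without a stated strand setting the reads there cannot be assigned. Its mean level was at most 23.0 CPM, in GM cultures in DMSO, and followed Zeb2 down to 7.18 CPM at 1 µM.

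Of the plasmacytoid factors, Tcf4 was flat without AZD5582 and Spib was not. Tcf4 lay between 23.1 and 29.5 CPM in the 6 GM libraries at t0 and in DMSO, and between 24.1 and 36 CPM in the 6 FL libraries of those groups. With AZD5582 it reached 53.5, 47.4 and 47.6 CPM at 0.1 µM, 67.2, 62.2 and 59.2 CPM at 0.5 µM and 74.9, 61.5 and 61.6 CPM at 1 µM in GM cultures, and 69.0, 69.1 and 98.3 CPM in FL cultures. Every library with AZD5582 exceeded every library without it. Spib stood at 13.8, 13.7 and 10.8 CPM in GM cultures at t0, at 134, 189.6 and 147 CPM in DMSO, and between 371 and 468 CPM at the 3 doses. In FL cultures 91, 94 and 95 it stood at 62.7, 83.0 and 109 CPM at t0, 323, 141 and 194 CPM in DMSO and 313, 219 and 339 CPM in AZD5582. The FL groups in DMSO and AZD5582 overlapped.

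Id3 had the widest range, 205-fold between group means, and the lowest counts. GM libraries at t0 held 13, 11 and 15 counts, or 0.194, 0.181 and 0.244 CPM, against 22.4, 17.2 and 24.5 CPM in DMSO. With AZD5582 Id3 stood at 4.13, 3.86 and 5.66 CPM at 0.1 µM, 1.27, 1.75 and 2.52 CPM at 0.5 µM and 1.69, 2.14 and 2.27 CPM at 1 µM. So the level was highest in DMSO, and the AZD5582 groups lay between it and t0. FL cultures 91, 94 and 95 had the same order at higher levels: 1.20, 7.12 and 4.15 CPM at t0, 33.6, 36.3 and 57.2 CPM in DMSO and 8.30, 6.82 and 7.06 CPM in AZD5582, where t0 and AZD5582 overlapped.

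To set different genes roughly side by side, CPM were divided by exon length in kilobases, with all annotated exons of a gene merged. Id2 (211 CPM per kb), Irf4 (33) and Klf4 (30.5) were then the most abundant of the list in GM cultures at t0, and Irf8 stood at 20.8. In FL cultures at t0 the highest were Id2 (412), Irf8 (188), Batf3 (29.8) and Spib (29.6). At 1 µM in GM cultures they were Id2 (331), Irf8 (281) and Spib (145). Tcf4 and Zeb2, whose merged exons are the longest of the list (27382 and 19942 bases), were low on this scale. Tcf4 stood between 0.929 and 2.88 CPM per kb over the 8 groups, and Zeb2 between 0.584 and 9.54. Where merged exons are longer than the transcripts expressed, this scale understates a gene.

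FL and GM cultures were compared before treatment, the question being which branch factors the FLT3L cultures express. At t0, 8 of the 10 members differed, 6 higher and 2 lower in FL cultures, where 40.9% of 17262 genes tested were called (23.4% higher and 17.5% lower). The libraries of the 2 groups did not overlap for 9 members and for 62.2% of genes. All 3 cDC1 factors were higher: Irf8 by 9.00-fold (log2 3.17 ± 0.36, adjusted p = 6.14e-07), Batf3 by 3.50-fold (1.81 ± 0.12, adjusted p = 5.90e-10) and Id2 by 1.95-fold (0.96 ± 0.14, adjusted p = 1.53e-05). Zbtb46 was 4.82-fold higher (2.27 ± 0.25), Spib 6.63-fold higher (2.73 ± 0.26) and Id3 19.9-fold higher (4.32 ± 0.48). The factors shared with monocytes were lower in FL cultures, Zeb2 by 9.11-fold (-3.19 ± 0.24, adjusted p = 2.19e-09) and Klf4 by 2.74-fold (-1.45 ± 0.20). Irf4 (-0.35 ± 0.30, adjusted p = 0.378) and Tcf4 (0.20 ± 0.15, adjusted p = 0.297) were not called. With only these 2 groups fitted, Irf4 was called lower in FL cultures (-0.40 ± 0.09, adjusted p = 0.00428). Without the libraries of culture 91, Irf8 was at 2.77 ± 0.15 (adjusted p = 7.49e-12).

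After 24 h in DMSO, 6 members differed between FL and GM cultures, 4 higher and 2 lower in FL, beside 41.4% of genes (20% higher and 21.4% lower). Groups did not overlap for 6 members and 45.1% of genes. Zeb2 was 8.47-fold lower in FL cultures and Klf4 2.18-fold lower. Batf3 (2.06-fold), Id2 (1.58-fold), Zbtb46 (2.50-fold) and Id3 (1.98-fold, adjusted p = 0.0431) were higher in FL. Irf8 (0.42 ± 0.33, adjusted p = 0.322) and Spib (0.48 ± 0.24, adjusted p = 0.119) were not shown to differ there. The Irf8 value was -0.15 ± 0.15 (adjusted p = 0.443) without the libraries of culture 91. Spib was then at 0.09 ± 0.19 (adjusted p = 0.719), Zbtb46 at 0.89 ± 0.16 (adjusted p = 0.000105) and Id3 at 1.13 ± 0.24 (adjusted p = 0.000760). The Id3 call was lost with no filter on low counts (adjusted p = 0.0788) and when any of the 3 GM libraries in DMSO or culture 95 in DMSO was left out, with adjusted p from 0.0640 to 0.190. Spib was called (adjusted p = 0.0190) when culture 94 in DMSO was left out.

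**Figure D2:**
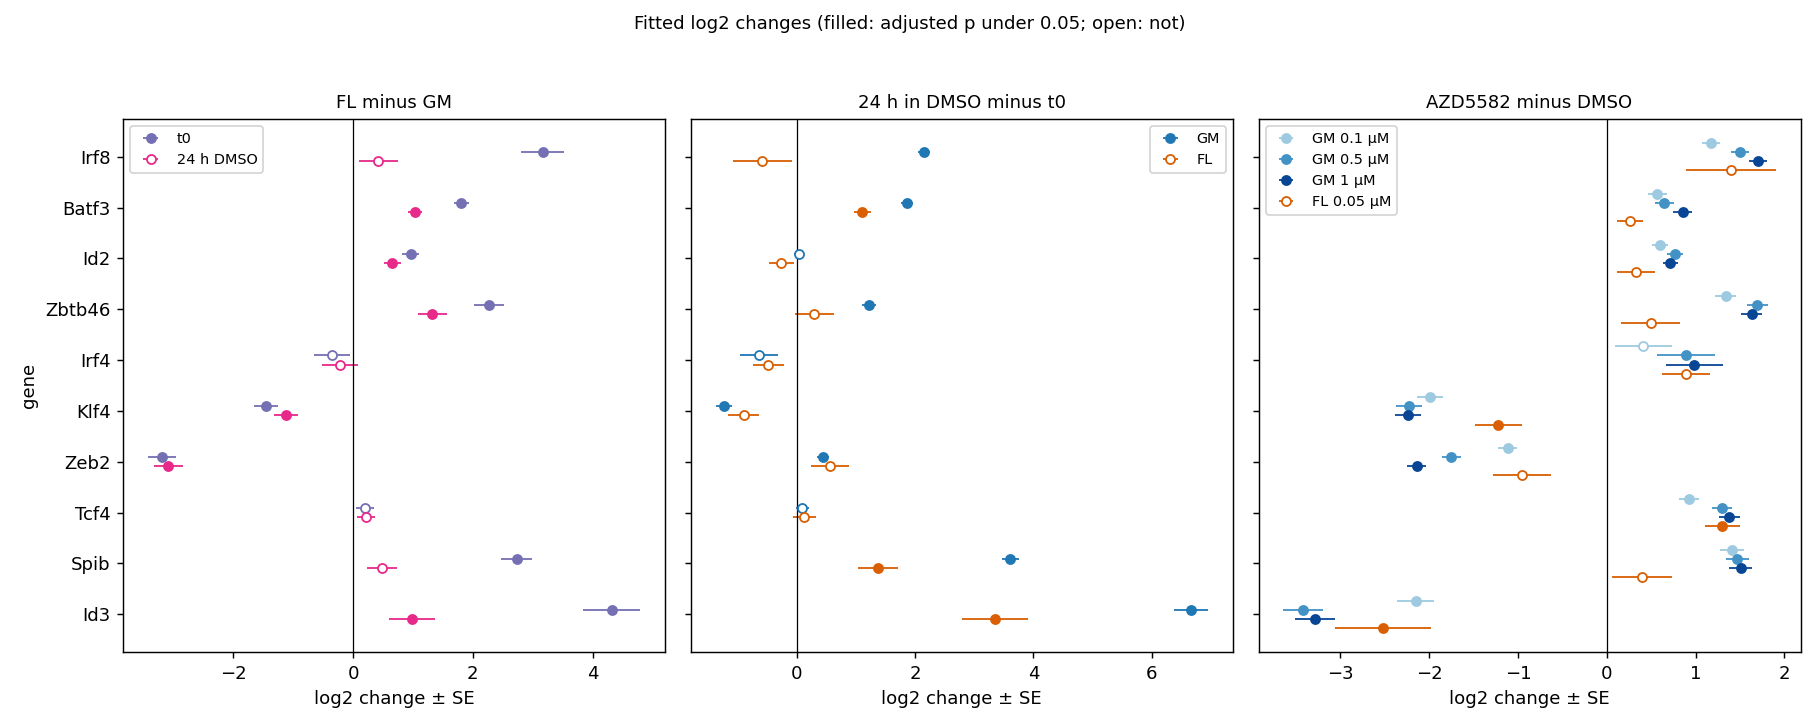
Fitted log2 changes of the 10 genes with their standard errors, in 3 panels: FL minus GM cultures at t0 and after 24 h in DMSO, 24 h in DMSO minus t0 in each culture type, and AZD5582 minus DMSO at each dose; filled points have an adjusted p under 0.05 and open points do not. Irf8 lies at 3.17 between culture types at t0 and at 0.42 after 24 h, and Klf4, Zeb2 and Id3 lie below 0 at each AZD5582 dose.

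The 24 h in DMSO were compared with t0 in each culture type; time and solvent differ together there. In GM cultures 7 of the 10 members changed, 6 higher and 1 lower, beside 47.5% of 16152 genes (27.2% higher and 20.3% lower). Groups did not overlap for 8 members and 57% of genes. Id3 rose 102-fold (log2 6.67 ± 0.29, adjusted p = 4.16e-12) and Spib 12.2-fold (3.61 ± 0.15, adjusted p = 2.35e-12). Irf8 rose 4.42-fold (2.14 ± 0.10), Batf3 3.64-fold (1.86 ± 0.11), Zbtb46 2.33-fold (1.22 ± 0.12) and Zeb2 1.36-fold (0.45 ± 0.10, adjusted p = 0.00180, and 0.126 in a fit over all 24 libraries). Klf4 fell 2.36-fold (-1.24 ± 0.14, adjusted p = 7.71e-07). So factors of the cDC1, the plasmacytoid and the shared branches rose in the same libraries. Id2 (0.03 ± 0.09), Tcf4 (0.09 ± 0.11) and Irf4 (-0.63 ± 0.32, adjusted p = 0.125) were not called. Irf4 was lower in DMSO in 3 of 3 same-numbered pairs, and was called with no filter on low counts (-0.66 ± 0.11, adjusted p = 3.50e-08) and with only these 2 groups fitted (-0.68 ± 0.15, adjusted p = 0.00330).

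In FL cultures 3 members changed over the 24 h, all higher, beside 10.1% of 15961 genes (4.96% higher and 5.18% lower). Groups did not overlap for 4 members and 38.6% of genes. Id3 rose 10.2-fold (3.35 ± 0.56, adjusted p = 0.0168), Spib 2.60-fold (1.38 ± 0.34, adjusted p = 0.0409) and Batf3 2.15-fold (1.11 ± 0.15, adjusted p = 0.0131). Each was higher in 3 of 3 cultures. With culture as a replicate block, 5 members and 3107 genes were called against 1619 without it: Irf8 fell (-0.67 ± 0.18, adjusted p = 0.0396), as did Klf4 (-0.87 ± 0.22, adjusted p = 0.0352). Irf8 without the block was at -0.58 ± 0.50 (adjusted p = 0.468), and Klf4 at -0.90 ± 0.26 (adjusted p = 0.0618). Klf4 was also called lower by DESeq2 (adjusted p = 0.0291) and in a fit over all 24 libraries (adjusted p = 0.00213).

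These FL calls rest on few libraries. With the replicate block and all libraries, adjusted p was 0.0113 for Batf3, 0.0161 for Id3 and 0.0296 for Spib. The fits that leave out libraries had no block and so did not use the pairing. Without culture 91 at t0, adjusted p was 0.0689 for Batf3, 0.0512 for Id3 and 0.162 for Spib, and without culture 95 at t0 it was 0.0595, 0.0743 and 0.0884. Spib was also lost without culture 94 at t0 (adjusted p = 0.117), without the DMSO library of culture 91 (0.0717) or of culture 95 (0.0701), without all libraries of culture 91 (0.0868), and with only these 2 groups fitted (0.0657). Without all libraries of culture 91, Batf3 (0.95 ± 0.13) and Id3 (3.03 ± 0.32) rose and Klf4 fell (-0.70 ± 0.17, adjusted p = 0.0414).

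Whether the 24 h change differed between culture types was tested by the interaction term. It was called for 4 members, all with a lower change in FL than in GM cultures, beside 4.84% of 17262 genes (3.96% lower). The difference in log2 change was -2.75 ± 0.48 for Irf8 (adjusted p = 0.00175), -2.25 ± 0.35 for Spib (adjusted p = 0.000668), -3.33 ± 0.60 for Id3 (adjusted p = 0.00258) and -0.77 ± 0.17 for Batf3 (adjusted p = 0.0105). These 4 were among the 6 members that stood higher in FL cultures at t0. Zbtb46 and Id2 stood higher there too and were not called for the interaction in this fit. Zbtb46 was at -0.94 ± 0.33 (adjusted p = 0.115), and was called with the replicate block (-1.03 ± 0.20, adjusted p = 0.00308) and without the DMSO library of culture 91 (-1.38, adjusted p = 0.00166). Klf4, Zeb2, Tcf4, Irf4 and Id2 were not shown to differ in their 24 h change.

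AZD5582 was compared with DMSO at each dose in GM cultures; the 3 comparisons share the DMSO libraries. At 0.1 µM, 9 of the 10 members changed, 6 higher and 3 lower, beside 40.3% of 16152 genes (19.9% higher and 20.3% lower). At 0.5 and 1 µM all 10 changed, 7 higher and 3 lower, beside 53.5% (25.8% higher and 27.7% lower) and 55.1% (26.9% higher and 28.2% lower). At each dose the groups of 9 members, all but Irf4, did not overlap with DMSO, against 50.1%, 59.6% and 55% of genes. The median absolute log2 change of the 10 was 1.15, 1.49 and 1.57 at the 3 doses, against 0.40, 0.54 and 0.57 over all genes tested.

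The cDC1 factors rose. Irf8 rose 2.26-fold, 2.84-fold and 3.27-fold at 0.1, 0.5 and 1 µM (log2 1.18, 1.50 and 1.71, each ± 0.10, adjusted p = 1.80e-10 at 1 µM). Without replicate 1 at 1 µM its change there was 1.65 ± 0.10, and 9 members were called, all but Irf4. Batf3 rose 1.49-fold, 1.57-fold and 1.81-fold, with adjusted p = 1.74e-06 at 1 µM. Id2 rose 1.52-fold, 1.70-fold and 1.64-fold. Zbtb46 rose 2.53-fold, 3.24-fold and 3.10-fold (log2 1.34, 1.70 and 1.63, each ± 0.12).

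The plasmacytoid factors rose in the same libraries. Spib rose 2.66-fold, 2.77-fold and 2.84-fold, and Tcf4 1.90-fold, 2.46-fold and 2.61-fold (log2 0.93, 1.30 and 1.38, each ± 0.11). The E protein gene Tcf4 and its antagonist Id2 thus rose together, while Id3 fell 4.45-fold, 10.7-fold and 9.74-fold (adjusted p = 2.31e-07, 7.31e-10 and 1.04e-09).

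Klf4 fell 3.98-fold, 4.67-fold and 4.72-fold (log2 -1.99, -2.22 and -2.24, each ± 0.15). Zeb2 fell 2.17-fold, 3.36-fold and 4.42-fold (log2 -1.12, -1.75 and -2.14, each ± 0.11, adjusted p = 3.47e-11 at 1 µM). Irf4 did not share their direction: it was at 0.41 ± 0.32 at 0.1 µM (adjusted p = 0.343, and 0.00293 with no filter on low counts) and rose 1.86-fold at 0.5 µM (adjusted p = 0.0327) and 1.98-fold at 1 µM (adjusted p = 0.0194). Leaving out replicate 1 or 3 in DMSO or replicate 1 or 2 at 0.5 µM ended the call at 0.5 µM, with adjusted p from 0.0622 to 0.135. Leaving out replicate 3 in DMSO or replicate 1 or 2 at 1 µM ended that at 1 µM, with adjusted p from 0.0806 to 0.0992. These fits had no replicate block. With the block and all GM libraries, adjusted p for Irf4 was 4.41e-05 at 0.5 µM and 1.48e-05 at 1 µM.

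Among the 3 doses alone, the log2 slope for each 10-fold step in AZD5582 was called for 5 members, 3 rising and 2 falling, beside 20.4% of genes (7.47% rising and 12.9% falling). Zeb2 fell by 1.01 ± 0.10 (adjusted p = 1.87e-06) and Id3 by 1.25 ± 0.21 (adjusted p = 0.000329). Irf8 rose by 0.52 ± 0.10 (adjusted p = 0.000914), Tcf4 by 0.47 ± 0.11 (adjusted p = 0.00580) and Zbtb46 by 0.33 ± 0.12 (adjusted p = 0.0493). The Zbtb46 call was lost, with adjusted p from 0.0646 to 0.197, without replicate 2 or 3 at 0.1 µM, any replicate at 0.5 µM, or replicate 2 or 3 at 1 µM. In a fit over all 24 libraries Zeb2 alone kept its call. Spib (0.10 ± 0.13, adjusted p = 0.653), Id2 (0.14 ± 0.09), Batf3 (0.26 ± 0.10, adjusted p = 0.0902) and Klf4 (-0.26 ± 0.14, adjusted p = 0.222) had no called slope: their levels differed from DMSO at 0.1 µM and a further change with dose was not shown.

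In FL cultures 0.05 µM AZD5582 changed 3 members, 1 higher and 2 lower, beside 2.9% of 15961 genes (1.62% higher and 1.28% lower). Groups did not overlap for 6 members and 18.3% of genes. Tcf4 rose 2.47-fold (log2 1.30 ± 0.20, adjusted p = 0.0202), Id3 fell 5.74-fold (-2.52 ± 0.54, adjusted p = 0.0473) and Klf4 fell 2.33-fold (-1.22 ± 0.26, adjusted p = 0.0480). With culture as a replicate block, 6 members and 1098 genes were called against 463 without it: Irf8 rose (1.44 ± 0.18, adjusted p = 0.00890), Irf4 rose (0.90 ± 0.18, adjusted p = 0.0332) and Zeb2 fell (-1.0 ± 0.19, adjusted p = 0.0286). Without the block these were at 1.40 ± 0.51 (adjusted p = 0.196), 0.89 ± 0.27 (adjusted p = 0.124) and -0.95 ± 0.33 (adjusted p = 0.172). The within-culture log2 change of Irf8 was 1.30, 1.48 and 1.55 in cultures 91, 94 and 95, a narrow range beside the spread of its levels.

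Without culture 91, 6 members and 2283 genes were called in FL cultures. Irf8 (1.57 ± 0.24, adjusted p = 0.00568), Tcf4 (1.36 ± 0.22) and Zbtb46 (0.80 ± 0.21, adjusted p = 0.0395) rose. Id3 (-2.71 ± 0.31), Klf4 (-1.55 ± 0.18) and Zeb2 (-0.81 ± 0.20, adjusted p = 0.0368) fell. Processing also ended calls: with only these 2 groups fitted adjusted p was 0.0812 for Tcf4 and 0.152 for Klf4, with median-of-ratios scaling it was 0.0524 for Klf4, and with no filter on low counts 0.0619 for Id3. A fit over all 24 libraries called Irf8 (adjusted p = 0.00657) and Zeb2 (adjusted p = 0.00560), and DESeq2 called Irf4 (adjusted p = 0.0403). With the replicate block and all libraries, adjusted p was 0.00492 for Tcf4, 0.0393 for Id3 and 0.0227 for Klf4. The fits that leave out libraries had no block. In them Tcf4 lost its call without the DMSO library of culture 94 or 95 or the AZD5582 library of culture 95, with adjusted p from 0.0631 to 0.0763. Klf4 lost it without any of these or the AZD5582 library of culture 94, with adjusted p from 0.0984 to 0.208. Id3 lost it without any of these 4 libraries or the AZD5582 library of culture 91, with adjusted p from 0.0928 to 0.207. Without the DMSO library of culture 91, Irf8 (2.02, adjusted p = 0.0330) and Zbtb46 (0.98, adjusted p = 0.0415) were called too. Batf3 (0.26 ± 0.14), Id2 (0.33 ± 0.21) and Spib (0.40 ± 0.34) were not called in FL cultures. FL cultures received 0.05 µM and GM cultures 0.1 µM or more, so the responses stand side by side without a test of their difference.

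Log2 ratios of 2 members within a library do not depend on library scaling, and are given as descriptions. Irf8 minus Irf4 averaged -0.14 in GM cultures at t0, where the 2 genes had nearly equal CPM, and 2.66 after 24 h in DMSO. It averaged from 3.32 to 3.45 at the 3 doses, where single libraries ran from 2.90 to 4.07. FL libraries at t0 ran from 2.99 to 3.94. Batf3 minus Zeb2 rose in steps from -3.35 at t0 through -1.94 in DMSO, -0.25 at 0.1 µM and 0.47 at 0.5 µM to 1.06 at 1 µM in GM cultures. In FL cultures it averaged 1.68 at t0, 2.20 in DMSO and 3.48 in AZD5582, so that no GM library reached an FL library. Id2 minus Tcf4 went the other way, from 4.34 at t0 to 3.62 at 1 µM in GM cultures and from 5.10 at t0 to 3.75 in AZD5582 in FL cultures.

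**Figure D3:**
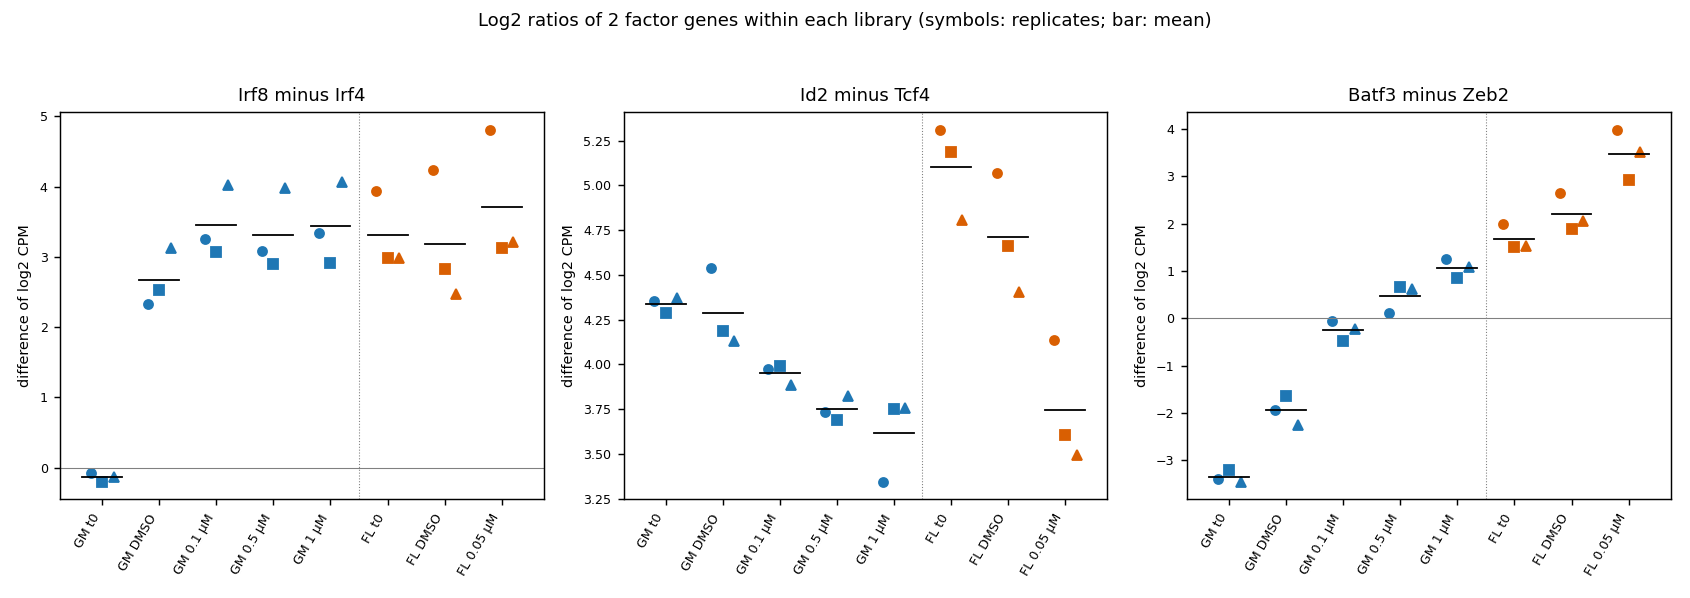
Difference of log2 CPM between 2 member genes in each of 24 libraries (symbols, coloured by culture type) with group means as bars: Irf8 minus Irf4, Id2 minus Tcf4 and Batf3 minus Zeb2. Batf3 minus Zeb2 is below 0 in all GM libraries at t0, in DMSO and at 0.1 µM and above 0 in all others; the axis of Id2 minus Tcf4 does not start at 0.

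Defining markers of the branches did not all follow the factors. Beside the counts of called markers, 26.9% of all genes rose and 28.2% fell at 1 µM in GM cultures, and 27.2% rose there over 24 h. At t0, 23.4% were higher and 17.5% lower in FL cultures. In FL cultures 1.28% fell in AZD5582. Xcr1, the chemokine receptor that defines cDC1 cells, stood at 212 ± 149.8 CPM (SD, n = 3) in FL cultures at t0, 16.6 ± 9.39 in DMSO and 2.07 ± 0.600 in AZD5582, while Batf3 was at its highest in the last group. In GM cultures Xcr1 was at most 0.139 CPM on average and at 0 counts at 0.5 and 1 µM, where Irf8 was highest. Of the 10 cDC1 markers listed, 7 were higher in FL than in GM cultures at t0 (median log2 difference 4.83, against 0.09 for all genes). In GM cultures at 1 µM, 1 of the 9 tested rose (Gcsam, 2.29) and 4 fell, Wdfy4 (-3.26) and Naaa (-2.86) the most. In FL cultures 3 of 10 fell in AZD5582: Tlr3 (-4.40), Xcr1 (-3.00) and Cadm1 (-1.60). Summed over the list, cDC1 markers held 2639 to 5764 CPM in FL libraries at t0, 434 to 1301 in DMSO and 405 to 632 in AZD5582. GM libraries held 2015 to 2140.5 CPM at t0, 776 to 954 in DMSO and 413 to 421 at 1 µM. Such a sum follows the most abundant genes of the list. The median log2 change of the 9 tested at 1 µM was only -0.14, against -0.01 for all genes.

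The rise of Tcf4 and Spib was not accompanied by the defining plasmacytoid marker. Siglech, a receptor of plasmacytoid cells, had 0 counts in the GM libraries at 0.1 and 1 µM but not at 0.5 µM, so its 0 counts did not follow the dose. Its level fell from 8.82 to 4.78 and 2.66 CPM over the 3 FL groups. Of 9 plasmacytoid markers tested in GM cultures at 1 µM, 3 rose and 5 fell (median -1.43, against -0.01 for all genes), and Ly6d (2.88) and Bst2 (0.56) were among those that rose. The summed level of the list went the other way from its median: 164 to 212 CPM in DMSO, 239 to 266 at 0.1 µM, 218 to 238 at 0.5 µM and 221 to 287 at 1 µM, where Bst2 alone averaged 172, 242, 221 and 235 CPM. In FL libraries the sum was 204 to 218 CPM at t0, 122 to 169.9 in DMSO and 104 to 128 in AZD5582. B and plasma cells also express Spib: of their 8 markers 7 were higher at 1 µM, with a summed level of 23.2 to 25.9 CPM against 5.64 to 11.7 in DMSO. Their part in the result was not tested.

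Markers of the cells in which Klf4 and Zeb2 act fell with AZD5582 in GM cultures, as both genes did. The 12 monocyte and macrophage markers summed to 29073 to 35510.4 CPM in GM libraries in DMSO, 11532 to 12341 at 0.1 µM, 5884 to 6517 at 0.5 µM and 3877 to 5109 at 1 µM. All 12 fell at 1 µM (median -3.35) and 11 of 12 were lower in FL than in GM cultures at t0 (median -3.60). Over the 24 h in DMSO 7 of the 12 rose in GM cultures, as Zeb2 did, while Klf4 fell. Of 8 cDC2 markers 7 fell at each dose (median -3.80 at 1 µM), while the cDC2 factor Irf4 rose at 0.5 and 1 µM, and their sum went from 1146 to 1466 CPM in DMSO to 454 to 483 CPM at 1 µM. Of 6 markers of dendritic cells in general 5 fell and 1 rose at 1 µM (median -1.0), where Zbtb46 rose. The part of these cells in the changes of the members was not tested. Neutrophil markers also fell in GM cultures, 9 of 9 at 1 µM, from a summed 355 to 586 CPM in DMSO to 6.29 to 14 CPM. In FL cultures they were far higher, with all 9 above GM cultures at t0 (median 3.36). In cultures 91, 94 and 95 they summed to 1215, 4111.65 and 2023 CPM at t0, 1982, 9585 and 3858 CPM in DMSO and 167, 3488 and 338 CPM in AZD5582. Culture 94 was the highest in each group, and its Irf8 level was the lowest in each; the part of neutrophils in the FL values was not tested.

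In GM cultures, markers of mature migratory dendritic cells rose over the 24 h and with AZD5582, as Irf8, Batf3, Zbtb46 and Spib did. Their summed level was 1679 to 1991 CPM in GM libraries at t0, 9824 to 12759 in DMSO, 35724 to 48755 at 0.1 µM and 49832 to 77683 at 1 µM, and all 8 were higher at 1 µM than in DMSO and in DMSO than at t0. In FL cultures it was 5953 to 7161 CPM at t0, 10794 to 28228 in DMSO and 38725 to 52894 in AZD5582. Of the 8 markers, 4 were called higher there over the 24 h (median 1.38), beside 4.96% of genes. At 0.05 µM 1 was called higher (median 0.66), beside 1.62% of genes. Over the 24 h in FL cultures the members did not all follow the summed level: Irf8 was lower in DMSO in 3 of 3 cultures, and Zbtb46 was lower in culture 94 (log2 -0.17). Culture 91 in DMSO, whose levels of Irf8, Zbtb46 and Spib were the highest of the 3, had the highest value, and it had the lowest sum of cDC1 markers. The part of maturation in the members' levels was not tested.

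**Figure D4:**
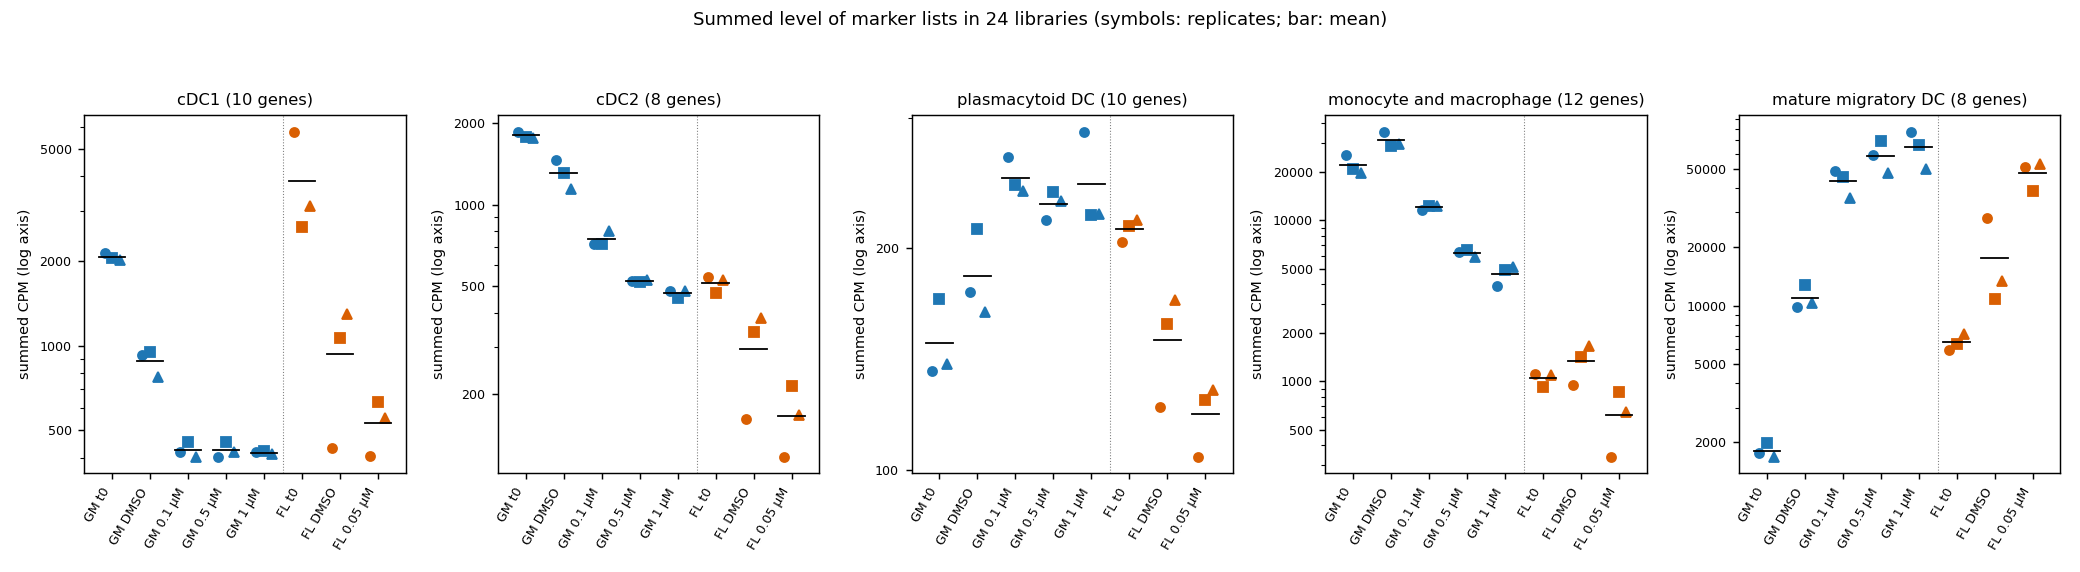
Summed CPM, on log axes, of 5 marker lists in each of 24 libraries: cDC1, cDC2, plasmacytoid, monocyte and macrophage, and mature migratory dendritic cell genes (symbols are libraries coloured by culture type, bars group means). In GM cultures the cDC1, cDC2 and monocyte sums are lower with AZD5582 than in DMSO and the plasmacytoid and mature sums are higher. In FL cultures the plasmacytoid sum is lower with AZD5582 than at t0. A sum follows the most abundant genes of its list and can differ from the median change of its genes.

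Other regulators of these branches, listed by role, moved in both directions. So did all genes: at 1 µM in GM cultures 26.9% rose and 28.2% fell. Over 24 h in DMSO 27.2% rose and 20.3% fell there. At t0, 23.4% of genes were higher and 17.5% lower in FL than in GM cultures. In FL cultures 1.28% fell at 0.05 µM. Among 15 tested partner genes and relatives of the members, 4 rose and 7 fell at 1 µM in GM cultures (median -0.37). The 3 with the smallest p were Irf1, an interferon regulatory factor (1.61 ± 0.10), Tcf3, a second E protein gene (1.27 ± 0.10), and Klf2 (-2.62 ± 0.22). Over 24 h in DMSO 8 of the 15 rose and 1 fell, Id1 (-2.54 ± 0.21), so that Id1 and its relative Id3 moved in opposite directions. Irf1 rose by 3.14 ± 0.11 there.

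Of 7 other cDC1 regulators 3 rose and 3 fell at 1 µM. Nfil3, which acts upstream of Id2 in the cDC1 branch, rose (0.88 ± 0.11) as did Etv6 (0.86 ± 0.07), and Mycl, which is needed for cDC1 fitness, fell (-2.39 ± 0.27). In FL cultures Mycl also fell (-2.02 ± 0.38, adjusted p = 0.0342), the only one of the 7 called there. At t0, 6 of the 7 were higher in FL than in GM cultures (median 1.05), with Zfp366 at 2.47 ± 0.42, Bcl6 at 2.03 ± 0.36 and Cbfa2t3 at 1.05 ± 0.20.

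Of 8 other cDC2 and Notch regulators 4 rose and 2 fell at 1 µM, among them Prdm1 (1.47 ± 0.16), Relb (0.67 ± 0.11) and the receptor gene Notch2 (-1.22 ± 0.11). Relb, an NF-κB subunit gene, rose by 3.05 ± 0.12 over the 24 h in DMSO. Of 7 other plasmacytoid regulators 3 rose and 4 fell at 1 µM: Runx2, which controls the exit of plasmacytoid cells from bone marrow, rose (1.60 ± 0.12), and Ikzf1 (-1.08 ± 0.08) and Runx1 (-1.32 ± 0.10) fell. Bcl11a, a plasmacytoid regulator, was higher in FL than in GM cultures at t0 (1.93 ± 0.33), where Tcf4 was not shown to differ.

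The 12 other monocyte and macrophage regulators were closest in direction to Klf4 and Zeb2. At 1 µM 9 of them fell and 2 rose (median -1.61), with Maf at -4.03 ± 0.23, Pparg at -2.13 ± 0.15 and Mitf at -1.69 ± 0.12. At t0, 8 of the 12 were lower in FL than in GM cultures (median -2.78). Of 8 granulocyte, mast cell and progenitor regulators tested at 1 µM, 2 rose and 4 fell, with Cebpe at -3.64 ± 0.32, Gfi1b at -1.47 ± 0.30 and Myc at -1.51 ± 0.13.

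Members were also described by the genes most like them over all 24 libraries, by Pearson correlation of log2(CPM + 1) among 9517 candidates; these libraries share culture type and treatment, so that r is a description. Among the members, Irf8 was most like Zbtb46 (r = 0.95) and Spib (0.87), and least like Klf4 (-0.84). Id2 and Zeb2 ran in opposite directions (-0.91), as did Klf4 and Spib (-0.91). Outside the list the closest genes were Ier5 (0.97) for Irf8, Gpr132 (0.97) for Batf3, Bclaf1 (0.96) for Id2 and Trim35 (0.98) for Zbtb46. They were Adora2a, an adenosine receptor gene (0.99), and Fscn1, a marker of mature dendritic cells (0.99), for Spib, and Trim43b, which has near-identical relatives and is uncertain, for Tcf4 (0.96). Zeb2 was closest to Cybb, the catalytic subunit gene of the phagocyte oxidase (0.99), and Klf4 to Klk1b9 (0.97). Irf4 and Id3 had looser neighbours: Ccl17 (0.81), a chemokine gene, for Irf4 and Akt1s1 (0.89) for Id3.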

How the data were processed

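The authors deposited 1 file per library of unnormalized read counts for each gene. The submitters' processing notes name STAR 2.7.3a, HTSeq 0.12.4, DESeq2 1.30.1 and the build GRCm39, with no role for each. Strand setting and annotation release: not given in the sources used here. Per the labels' protocols, libraries were TruSeq Stranded mRNA from RNA of high integrity. Lines that name no gene, 10.98% to 16.4% of counts, were left out. A table of gene names, matched by Ensembl identifier, named 52081 of 55414 lines, and exon lengths are from GENCODE M21 (GRCm38).

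Counts were tested with edgeR 4.0.16 in R 4.3.3 (TMM, filterByExpr, robust quasi-likelihood, group means, Benjamini-Hochberg) in models of 15 GM libraries (16152 genes), 9 FL libraries (15961 genes) and all 24 (17262 genes, for FL against GM and the interaction). The biological coefficient of variation was 0.146, 0.390 and 0.272. CPM use TMM factors of all 24 libraries. Scripts were tested on simulated data. The members and all lists were chosen with earlier results of these data known. All 10 members are named. Other regulators are named as the 3 of smallest p in a list, and markers by size of change or as defining genes, chosen after their values were seen. The alternatives were another scaling, no filter, DESeq2 1.42.0, a replicate block, other sets of libraries and leaving out each library.

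Same-numbered FL libraries deviated together: the correlation of their deviations from group means was over 0.1 in 9 of 9 pairs (0.116 to 0.813). Between FL libraries of different numbers it was over 0.1 in 3 of 18 pairs (-0.813 to 0.507). FL numbers were taken to pair the samples only in the fits with a replicate block. The main FL fits, and those that leave out libraries, had no block and did not use the pairing.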

Additional observations from a re-analysis of the deposited data

Results flagged for a closer look

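For 4 genes the change over 24 h in DMSO differed between culture types by the interaction term of edgeR's quasi-likelihood model. The FL change minus the GM change, in log2, was -2.75 for Irf8, -0.77 for Batf3, -3.33 for Id3 and -2.25 for Spib. Irf8 was higher in DMSO than at t0 in 3 of 3 GM replicates and lower in 3 of 3 FL cultures. Batf3, Id3 and Spib were higher in DMSO in 3 of 3 replicates of both culture types, by less in FL cultures. All 4 stood higher in FL than in GM cultures at t0, so the starting levels differed too. Zbtb46 and Id2 also stood higher at t0 and were not called for the interaction in this fit. Groups of 3 libraries are too small for a test of single outlying samples.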

How the results depend on the processing

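Across other settings, 539 of 580 values of single members kept their direction and side of the threshold, and 637 of 690 did so when 1 library was left out; the cause was not tested for the rest. Turned signs were of changes not called in the main fit, and not all of these were small. In the main fit Irf8 between culture types in DMSO was at 0.42 ± 0.33 and Zbtb46 over 24 h in FL cultures at 0.30 ± 0.33. Both turned without the DMSO library of culture 91. Id2 over 24 h in GM cultures was -0.00563 with median-of-ratios scaling, -0.00678 with DESeq2 and -0.0137 with only the 2 groups fitted. Without all libraries of culture 91, an alternative chosen after seeing the data, Zbtb46 over 24 h in FL cultures was -0.0187 and Irf8 between culture types in DMSO -0.150. Leaving out 1 library gave ranges of -0.148 to 0.544 for Zbtb46 and -0.0021 to 0.234 for Tcf4 over 24 h in FL cultures, and -0.153 to 0.705 for Irf8 between culture types in DMSO. For the interaction it gave -0.173 to 0.292 for Irf4, -0.106 to 0.126 for Tcf4 and -0.0975 to 0.264 for Zeb2.

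Counts of calls in edgeR moved most in FL cultures. With all 24 libraries fitted, 3874 genes were called at 0.1 µM, 668 genes and 1 member for the slope, 5307 genes over 24 h in FL cultures, and 2721 genes and 5 members for 0.05 µM. DESeq2 called 3112 genes over 24 h in FL cultures and 1323 at 0.05 µM. With only the 2 groups fitted, 582 genes were called over 24 h in FL cultures, 31 genes and 1 member at 0.05 µM, and 3866 genes between culture types in DMSO. The interaction had 503 calls without a filter on low counts and 2596 without culture 91. At 0.05 µM, leaving out culture 91 gave 2283 genes and 6 members.

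The replicate block on the paired FL libraries gave 3107 genes and 5 members over 24 h, 1098 genes and 6 members at 0.05 µM, and 1685 genes for the interaction. It gained Irf8 and Klf4 over 24 h, Irf8, Irf4 and Zeb2 at 0.05 µM and Zbtb46 for the interaction, and changed no other call of a member in these 3 comparisons. In GM cultures, where same-numbered libraries correlated over 0.1 in 19 of 30 pairs and share only a number, the block added calls for Irf4 over 24 h (-0.68 ± 0.14, adjusted p = 0.000532), at 0.1 µM (0.40, adjusted p = 0.0274) and for the slope (0.57, adjusted p = 0.00557); the slope was called with no filter on low counts too (adjusted p = 2.64e-06). No paired analysis was possible because of nesting for FL against GM cultures, which share no numbers.

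Fits that left out 1 library had no replicate block. Leaving out 1 library gave 13 to 1454 genes and 0 to 3 members over 24 h in FL cultures, 17 to 1983 genes and 0 to 5 members at 0.05 µM, 486 to 1869 genes for the interaction and 2009 to 3293 for the slope. The lowest counts came without culture 91 or culture 95 at t0, culture 95 in DMSO, GM replicate 3 at t0 and GM replicate 2 at 0.1 µM, in that order, and the highest at 0.05 µM and for the interaction without culture 91 in DMSO. At unadjusted p under 0.05 with all FL libraries, 4744 and 2790 genes passed in the first 2 of these. With 3 libraries a group, the changes of Id2 in FL cultures were not called, with or without the replicate block. The smallest change that could be called there was not computed.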
